A study of Mus musculus with 6 samples.

Results

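The 8 protein kinase C genes measured here, Prkca, Prkcb, Prkcd, Prkce, Prkch, Prkci, Prkcq and Prkcz, were read by 13 of the 55681 probes of a one-colour Agilent mouse array, and they are 8 of the 20018 genes that could be named on it. Every probe whose RefSeq entry belongs to 1 of these genes was kept. The set was selected on the measured difference between knockout and wild type, in which a Prkcb probe falls strongly, so the differences of its members are a description and carry no p-value.

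The arrays carried RNA of cultured lung fibroblasts from mice that lacked Mmp19, a matrix metalloproteinase (Mmp19_KO, n = 3), and from wild-type mice (WT, n = 3). The mice of both groups were 11 weeks old and labelled female. All of them had received 0.08 units of bleomycin, which injures lung tissue and leaves fibrosis, into the trachea, so neither group is free of injury. Fibroblasts were isolated on day 21 and their cultures were incubated for 72 hours. The sources used here do not say how the Mmp19 allele was made or whether all cells lack it. No uninjured lung was part of the comparison, which asks how loss of Mmp19 bears on the expression profile of these cells. The labels do not say whether each culture came from 1 animal, so the errors below describe the spread between these samples.

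Protein kinase C isoforms are serine/threonine kinases that act downstream of receptors coupled to phospholipase C. Conventional isoforms (here Prkca and Prkcb) need calcium and the membrane lipid diacylglycerol. A second class (Prkcd, Prkce, Prkch and Prkcq) needs diacylglycerol without calcium, and atypical isoforms (Prkci and Prkcz) need neither and work in cell polarity complexes. Phorbol esters, plant compounds that mimic diacylglycerol, activate the first and second class. In fibroblasts the family is known for its part in the response to growth factors and to peptides such as angiotensin and endothelin. Prkcb is best known from B cells, where it links the antigen receptor to NF-kB.

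Prkcb stood apart from the rest of the family, and Prkca is the other conventional isoform of the 8, so the sequences in front of both genes are shown. Each holds 250 bases before and 50 bases after the annotated start, from RefSeq on GRCm38.p6. Capitals mark the GC box (GGGCGG on either strand) and the octamer (ATGCAAAT on either strand), an element known from immunoglobulin promoters.
Prkcb, chr7:122288875-122289174, plus strand: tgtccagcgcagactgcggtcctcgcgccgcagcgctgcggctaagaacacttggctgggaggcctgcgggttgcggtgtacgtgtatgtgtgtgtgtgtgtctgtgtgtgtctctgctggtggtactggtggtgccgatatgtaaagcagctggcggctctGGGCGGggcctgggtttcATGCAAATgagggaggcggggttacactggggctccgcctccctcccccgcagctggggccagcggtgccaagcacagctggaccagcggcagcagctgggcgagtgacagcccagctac
Prkca, chr11:108343839-108344138, minus strand: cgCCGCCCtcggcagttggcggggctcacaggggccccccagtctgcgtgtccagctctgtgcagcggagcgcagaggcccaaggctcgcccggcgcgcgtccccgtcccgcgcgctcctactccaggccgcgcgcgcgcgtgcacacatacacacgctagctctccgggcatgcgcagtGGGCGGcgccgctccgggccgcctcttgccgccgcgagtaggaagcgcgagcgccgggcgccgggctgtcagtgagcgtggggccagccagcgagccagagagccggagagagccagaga
The Prkcb promoter held 1 GC box, whose first base lay 88 bases before the start, and 1 octamer, whose first base lay 70 bases before it. Among 9 RefSeq promoters matched for 6 of the 8 genes (Prkca, Prkcb, Prkcd, Prkci, Prkcq and Prkcz), 7 held a GC box and the octamer was in that of Prkcb alone. The octamer was added to the search after this sequence had been read, and 1.7% of 32851 promoters of the same length held it. The Prkca promoter held 2 GC boxes and no octamer. A GC box was present in 35.7% of promoters. GC content was 65.3% with 19 CpG dinucleotides for Prkcb and 75.3% with 42 for Prkca, against medians of 52.7% and 7 over all promoters. Neither sequence held a TATA box (TATAAA, 13.6% of promoters), a CCAAT box (CCAAT, 37.4%), an E-box (CACGTG, 7.2%) or an AP-1 site (TGANTCA, 7.8%), on either strand. Such matches describe letters and not binding.

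All levels are log2 processed intensities relative to the 75th percentile of the array, so that 0 is the level of that percentile and 1 unit is a factor of 2. Levels of different probes are not compared, since probes differ in brightness. The percentile lay between 138.5 and 327.7 intensity units on Mmp19_KO arrays and between 189.7 and 290.3 on WT arrays. From 43.1% to 52.5% of spots were well above background on Mmp19_KO arrays and from 44.6% to 54.5% on WT arrays, and no spot was saturated. WT replicate 2 stood apart, with correlations of 0.939 and 0.960 with the other WT arrays, which correlated at 0.984. Mmp19 had -5.23, -6.51 and -6.05 in Mmp19_KO cultures, against -0.55, -2.69 and -0.69 in WT cultures. It was not well above background on any Mmp19_KO array and was at least 5.33-fold lower than in WT cultures (limma adjusted p = 0.016), although not called with normexp (-1.40). The sources used here do not place its probe relative to the deletion. Against the label, Xist was at least 7.41-fold higher in Mmp19_KO cultures (limma adjusted p = 0.00323) and was not well above background on any WT array. Eif2s3y and Ddx3y, which are Y-linked, were detected on each of the 6 arrays. Mmp19_KO cultures were uneven, with 2.19, -1.77 and 0.67 for Eif2s3y and 0.02, -3.26 and -0.99 for Ddx3y. WT cultures had 2.92, 4.18 and 3.62 for Eif2s3y and 0.49, 1.5 and 1.21 for Ddx3y. For both genes every Mmp19_KO array was below every WT array (limma adjusted p = 0.112 and 0.139). Such a difference between the animals cannot be told apart from genotype in any value below.

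**Figure D1:**
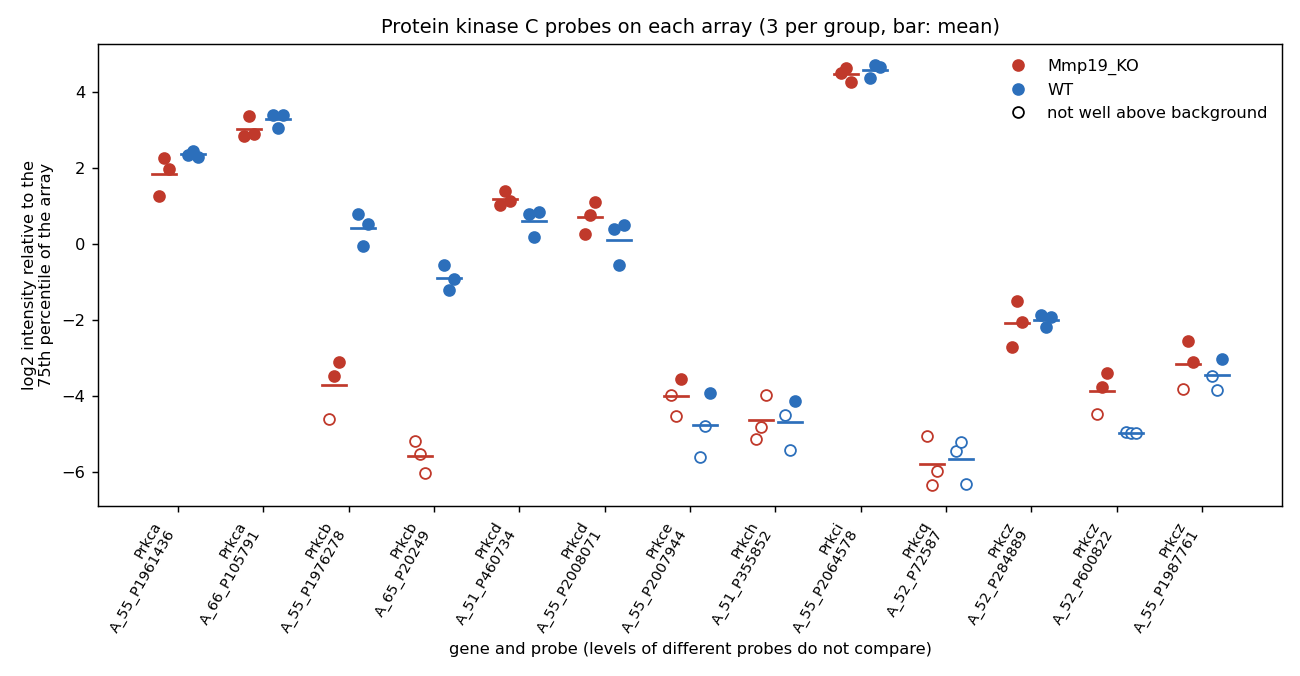
Level of each protein kinase C probe on each array, as log2 intensity relative to the 75th percentile of the array (vertical axis), for 13 probes (horizontal axis), 3 Mmp19_KO arrays in red and 3 WT arrays in blue, with bars at group means and open circles where the spot was not well above background. Both Prkcb probes show Mmp19_KO arrays at -3.10 or below and WT arrays at -1.21 or above.

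Prkcb fell furthest, on both of its probes. Probe A_65_P20249 had -5.18, -5.52 and -6.02 in Mmp19_KO cultures, against -0.55, -1.21 and -0.92 in WT cultures. Every Mmp19_KO array lay below every WT array by a wide gap, and the probe was well above background on all 3 WT arrays and on no Mmp19_KO array. Its measured difference was -4.68 ± 0.29 (SE from the moderated fit, n = 3 each), and because the Mmp19_KO signal was dim the size is bounded as at least 7.14-fold lower in Mmp19_KO cultures. That bound sets the WT mean against a Mmp19_KO mean whose signals were raised to the lowest level called well above background on each array.

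Probe A_55_P1976278 had -4.60, -3.46 and -3.10 in Mmp19_KO cultures, against 0.80, -0.05 and 0.52 in WT cultures. The groups were again separate, and here the probe was well above background on 2 of 3 Mmp19_KO arrays, all but replicate 1. Means were -3.72 ± 0.78 in Mmp19_KO cultures and 0.42 ± 0.43 in WT cultures (SD, n = 3 each). The difference was -4.14 ± 0.43 (SE), with the Mmp19_KO mean resting on 2 arrays above background and 1 at it.

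The fall of Prkcb was present on each slide, and each slide held 1 array of each group. Within slides 1, 2 and 3 the Mmp19_KO array differed from the WT array by -5.39, -3.40 and -3.62 at probe A_55_P1976278. The other probe, A_65_P20249, differed by -4.63, -4.31 and -5.10. The Mmp19_KO array was the lower one in all 6 of these, but the Mmp19_KO spots were well above background only at A_55_P1976278 on slides 2 and 3, so the other 4 sizes were read against background and have no order. Across the 6 arrays the Prkcb probes correlated at 0.95, which is given as a description with the group difference included. With normexp background correction, which here started from the median spot signal and adds a fixed offset, the differences were -2.03 and -1.41, for A_55_P1976278 and A_65_P20249.

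Of the 8 protein kinase C probes tested, 2 passed a limma adjusted p of 0.05, both of them Prkcb probes and both lower, beside 4.60% of all probes in either direction, 2.85% higher and 1.75% lower. Since this contrast chose the genes, the count is given without reading. With slide as a block both passed again, beside 1.59% of all probes. In bulk RNA of this kind, fewer cells of a type and less RNA per cell cannot be told apart.

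**Figure D2:**
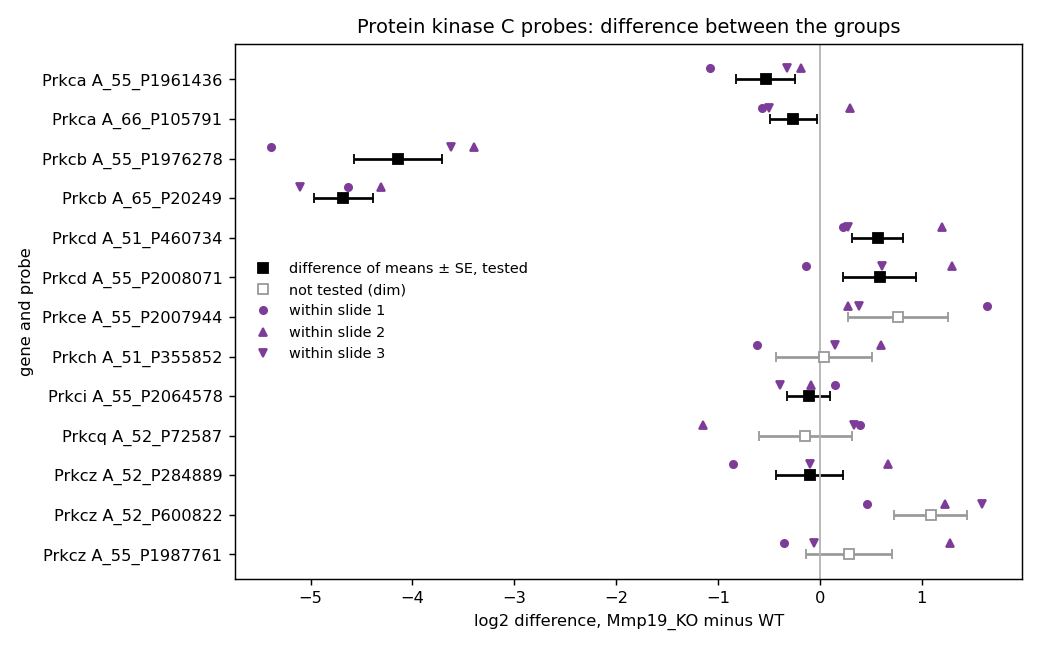
Log2 difference, Mmp19_KO minus WT (horizontal axis), of the 13 protein kinase C probes (vertical axis), with squares and bars for the difference of means ± SE, open grey squares for probes too dim to be tested, and purple marks for the difference within each of 3 slides. Prkcb lies at -4.14 and -4.68 with all within-slide marks on the same side, whereas the other tested probes lie between -0.53 and 0.59.

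The other conventional isoform with a readable level, Prkca, was far closer between the groups. Its probe A_55_P1961436 had 1.26, 2.28 and 1.97 in Mmp19_KO cultures, against 2.35, 2.46 and 2.29 in WT cultures. All Mmp19_KO arrays were below all WT arrays, replicate 2 only just, and Mmp19_KO replicate 1 was far the lowest. The difference was -0.53 ± 0.29 (SE), and -0.24 without that replicate. Probe A_66_P105791 had 2.84, 3.37 and 2.90 in Mmp19_KO cultures, against 3.41, 3.07 and 3.41 in WT cultures, and here the groups overlapped. Its difference was -0.26 ± 0.23 (SE), with the Mmp19_KO array higher within slide 2 (0.30) and lower within slides 1 and 3 (-0.57 and -0.50). Neither Prkca probe was called in any of the 16 alternative analyses.

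Prkcd, the calcium-independent isoform known from apoptosis and from collagen expression in fibroblasts, was the only one of its class with a tested probe, and its differences had the opposite sign. Probe A_51_P460734 had 1.03, 1.40 and 1.14 in Mmp19_KO cultures, against 0.79, 0.20 and 0.86 in WT cultures. The groups did not overlap, with WT replicate 2 lowest, and the difference was 0.57 ± 0.25 (SE). Probe A_55_P2008071 had 0.27, 0.76 and 1.12 in Mmp19_KO cultures, against 0.41, -0.54 and 0.50 in WT cultures. There the groups overlapped, again with WT replicate 2 lowest, and the difference was 0.59 ± 0.36 (SE). Without WT replicate 2 the differences were 0.36 (A_51_P460734) and 0.26 (A_55_P2008071). Neither probe was called in any alternative.

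The remaining calcium-independent isoforms were at or near background, so their values carry no order. Prkce, an isoform known from heart and nerve, had -3.96, -4.53 and -3.54 in Mmp19_KO cultures, against -5.60, -4.80 and -3.92 in WT cultures, and was well above background on 1 array of each group. Prkch, known from epithelia, had -5.14, -4.81 and -3.96 in Mmp19_KO cultures, against -4.51, -5.41 and -4.12 in WT cultures, and was well above background on 1 WT array alone. Prkcq, known from T cells, had -5.05, -6.35 and -5.97 in Mmp19_KO cultures, against -5.45, -5.20 and -6.31 in WT cultures, and was the 1 probe of the 13 that was well above background on no array. The groups overlapped for all 3 genes, none of which was tested.

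Among the atypical isoforms, Prkci, the catalytic partner of the Par polarity proteins, was read well above background on every array. It had 4.52, 4.63 and 4.26 in Mmp19_KO cultures, against 4.37, 4.72 and 4.66 in WT cultures. The groups overlapped and the means differed by -0.11 ± 0.21 (SE), from -0.27 to -0.01 over the alternatives. Prkcz, which also serves in NF-kB signalling, had 3 probes, of which 1 was tested. Probe A_52_P284889 had -2.72, -1.50 and -2.04 in Mmp19_KO cultures, against -1.87, -2.17 and -1.93 in WT cultures. The WT arrays lay inside the range of the Mmp19_KO arrays, and the difference of -0.10 ± 0.33 (SE) took the opposite sign with normexp (0.09) and without Mmp19_KO replicate 1 (0.22).

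Both untested Prkcz probes were dim. Probe A_52_P600822 had -4.48, -3.75 and -3.39 in Mmp19_KO cultures, against -4.94, -4.98 and -4.98 in WT cultures. The groups were separate, but the probe was well above background on 2 Mmp19_KO arrays and on no WT array. Probe A_55_P1987761 had -3.82, -2.55 and -3.09 in Mmp19_KO cultures, against -3.47, -3.84 and -3.03 in WT cultures, with overlap. The 3 Prkcz probes thus did not give 1 picture, and the tested one showed the smallest difference. Over the family, 6 of 13 probes were well above background on all 6 arrays, namely both Prkca and both Prkcd probes, Prkci and the tested Prkcz probe. Of the 8 tested probes 4 had groups that did not overlap, beside 29.5% of all probes. Both Prkcb probes, whose fall chose the set, are among the 4, so this count too is given without reading. The others were Prkca probe A_55_P1961436 and Prkcd probe A_51_P460734. Of the 6 tested probes that do not read Prkcb, 4 had a lower mean in Mmp19_KO cultures and 2 a higher one, and the median change of all tested probes was 0.07.

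Markers of cell types that could carry Prkcb were read alongside. Over all genes tested 4.74% passed in either direction, 3.25% higher and 1.49% lower. Of 10 B cell and plasma cell markers on the array, 7 were well above background on no array (among them Cd79a, Ms4a1, Pax5, Blk, Jchain and Mzb1). Of the 3 tested, Cd79b, a chain of the B cell receptor, was lower (limma adjusted p = 0.0241, and 0.0813 with slide as a block), but it was well above background on only 1 Mmp19_KO array. Its call was lost with normexp (-0.33, limma adjusted p = 0.555) and with no filter on dim probes (0.154). The log2 of the list's summed signal ran from 0.11 to 1.0 on Mmp19_KO arrays and from 0.38 to 0.76 on WT arrays. Here and below, such a sum adds the unlogged signals of 1 probe per gene. The brightest probes of a list weigh most in it, so it does not measure an amount of cells. Of T and NK cell markers, 4 of 12 were well above background on no array and 0 of 5 tested passed in limma (0 at an unadjusted p of 0.05), with summed levels from 2.74 to 3.16 on Mmp19_KO arrays and from 2.65 to 3.06 on WT arrays. Of macrophage and dendritic cell markers, 5 of 15 were well above background on no array and 0 of 6 tested passed (1 unadjusted), with summed levels from 5.60 to 6.79 on Mmp19_KO arrays and from 5.89 to 6.17 on WT arrays. Of granulocyte and mast cell markers, 4 of 9 were well above background on no array (Cpa3, Kit, Ms4a2 and Fcer1a) and 0 of 4 tested passed (2 unadjusted), with a median of -0.65. Their summed levels did not overlap, from 6.02 to 6.22 on Mmp19_KO arrays and from 6.36 to 6.50 on WT arrays. That sum was set mostly by the probe of Csf3r, which differed by -0.30 and was not called (limma adjusted p = 0.405). S100a8 differed by -3.76 ± 1.07 and S100a9 by -1.0 ± 0.30 (SE, limma adjusted p = 0.105 and 0.117), each with separate groups. They were well above background on 1 and 2 Mmp19_KO arrays. For S100a8, WT replicate 2 had -2.7, against 1.7 and 1.15 in the other WT cultures. Of neural and Schwann cell markers 0 of 5 passed (1 unadjusted), with summed levels from 2.92 to 3.69 on Mmp19_KO arrays and from 2.69 to 2.92 on WT arrays. All 17 fibroblast markers were tested and 3 rose in Mmp19_KO cultures (10 markers unadjusted), Col1a1, Col1a2 and Dpt. These were called in 10, 5 and 12 of 16 alternatives. With slide as a block Dpt alone of these passed, and Fap passed as well (limma adjusted p = 0.049). Differences were positive for 15 of the 17, with a median of 1.08, beside 0.08 for all genes tested. Summed levels of the list ran from 11.37 to 11.43 on Mmp19_KO arrays and from 10.36 to 11.28 on WT arrays. Among the marker lists, mesothelial markers had the highest share past the threshold: 6 of 9 rose. Bnc1 was among them (limma adjusted p = 0.00257), with a measured difference of 4.18, or 2.34 with normexp, and was well above background on 1 WT array. The list's summed level ran from 5.60 to 7.14 on Mmp19_KO arrays and from 1.47 to 4.25 on WT arrays. Of smooth muscle and pericyte markers 2 of 9 rose, Myh11 and Des. In that list 7 of the 9 differences were positive, while Notch3 (-1.31) and Cspg4 (-1.22) were lower and not called. Its summed levels overlapped, from 9.53 to 9.85 on Mmp19_KO arrays and from 7.48 to 10.09 on WT arrays. Of 13 endothelial markers 4 were well above background on no array, and of 8 tested 1 rose. This was Eng (limma adjusted p = 0.0494, and 0.0723 with slide as a block), which was called in 2 of 16 alternatives. Positive differences were found for 4 of the 8, with a median of 0.06. Endothelial sums ran from 4.49 to 4.85 on Mmp19_KO arrays and from 4.11 to 4.35 on WT arrays. Des was not called with normexp (1.04, limma adjusted p = 0.0565). The part of such other cells in the results on Prkcb and on the genes around it was not tested.

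The genes whose levels followed Prkcb most closely over the 6 arrays were sought among 12068 named genes with a value on every array, by Pearson correlation with probe A_65_P20249. Among the closest 5 were Serpinf2 (r = 0.9977), the inhibitor of plasmin, Isg15 (0.9970), an interferon-induced ubiquitin-like protein, Anp32b (0.9964), a nuclear chaperone, and Gpd1 (0.9961), which links glycolysis to glycerol lipids. Serpinf2 had -2.78, -3.14 and -3.65 in Mmp19_KO cultures, against 0.49, -0.24 and 0.22 in WT cultures. In this gene, as at the Prkcb probe, WT replicate 2 was the lowest WT array. The Prkcb probe was at background on all Mmp19_KO arrays, so its order among them carries no information. The differences of Isg15, Anp32b and Gpd1 were smaller, at -1.15, -0.72 and -1.07. Anp32b was not called, and with slide as a block neither Isg15 nor Anp32b nor Gpd1 passed. In all, 150 genes reached r of 0.95 and 17 reached 0.99, and since the 6 points fall into 2 groups, such values mostly restate a difference between the groups.

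Genes beside Prkcb on chromosome 7 were examined after its values had been seen. The nearest 5 tested genes on each side differed by -0.63 to 0.10 between the groups. Rbbp6, the first tested gene after Prkcb in gene order, was lowest at -0.63 ± 0.23 (SE) with separate groups, and Aqp8 followed at -0.45 ± 0.25 (SE) with overlap. The groups also overlapped for the other 8, Ubfd1, Ndufab1, Dctn5, Plk1, Ern2, Tnrc6a, Arhgap17 and Lcmt1, which lay between -0.21 and 0.10. Untested genes lie between Prkcb and these neighbours in the annotation. Mmp19 lies on chromosome 10, and the other 7 isoforms lie on chromosomes 11 (Prkca), 14 (Prkcd), 17 (Prkce), 12 (Prkch), 3 (Prkci), 2 (Prkcq) and 4 (Prkcz).

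**Figure D3:**
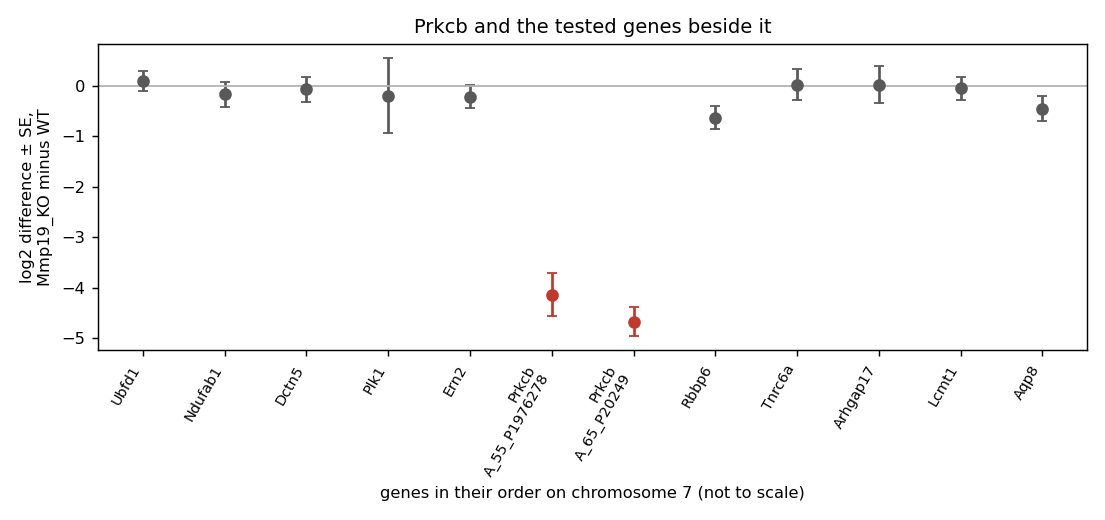
Log2 difference ± SE, Mmp19_KO minus WT (vertical axis), of both Prkcb probes in red and of the 5 nearest tested genes on each side in grey, in gene order along chromosome 7 (horizontal axis, not to scale). The Prkcb probes lie at -4.14 and -4.68 and the neighbours between -0.63 and 0.10.

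Around the kinases, 11 lists with 171 genes covered their activators, regulators, partners, substrates and targets, and 140 genes were tested. Of these, 4 rose and 2 fell in Mmp19_KO cultures at a limma adjusted p of 0.05, which is 4.29% beside 4.74% of all 12460 genes tested, of which 3.25% rose and 1.49% fell. The median change was 0.06, beside 0.08 for all genes, so the lists as a whole were called about as often as the array. With slide as a block 3 genes passed (Agtr1a, S1pr3 and Gap43), of which 2 are among the 6. The count was 2 without Mmp19_KO replicate 3 or WT replicate 3, 3 without Mmp19_KO replicate 1 and 21 without WT replicate 2, so single arrays moved it strongly. Calls over all probes moved as well, to 108 without Mmp19_KO replicate 3 and 1905 without WT replicate 2, beside 1113.

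Of the receptors and G proteins that lead to diacylglycerol, 18 were tested, 1 rose and 1 fell (11.1%, beside 4.74% of all genes tested). Agtr1a, the angiotensin II receptor, had -1.49, -0.83 and -1.41 in Mmp19_KO cultures, against -5.83, -5.27 and -5.87 in WT cultures. It was well above background on all Mmp19_KO arrays and no WT array, at least 5.63-fold higher in Mmp19_KO cultures (limma adjusted p = 0.00257, and 0.0246 with slide as a block). S1pr3, a receptor for sphingosine-1-phosphate, had -1.53, -1.24 and -1.47 in Mmp19_KO cultures, against 1.19, 0.81 and 0.84 in WT cultures. It fell by 2.36 ± 0.21 (SE, limma adjusted p = 0.00439, and 0.0350 with slide as a block) and was called in all 16 alternatives. Within slides S1pr3 differed by -2.71 to -2.05. Agtr1a was the higher one in Mmp19_KO cultures on every slide, and its measured difference was 1.28 with normexp.

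The enzymes that make and remove diacylglycerol were not called with the settings used throughout. Of 10 phospholipase C genes tested 0 passed in limma (2 at an unadjusted p of 0.05), with a median of -0.03. Plcd3 came closest at -1.22 ± 0.27 (SE, limma adjusted p = 0.0574) and was called in 6 of 16 alternatives, the authors' log2 values among them (0.0287), and Plcl2, a relative without catalytic activity, followed at -1.12 ± 0.33 (SE, limma adjusted p = 0.114). Of 6 diacylglycerol kinases 0 passed (1 unadjusted), with a median of -0.20 and Dgka at 0.60 (limma adjusted p = 0.205). Of 11 other proteins that bind diacylglycerol or phorbol ester, 1 rose (9.09%, beside 4.74% of all genes tested). This was Rasgrp3, an exchange factor for Ras, with 2.03, 2.67 and 1.98 in Mmp19_KO cultures, against 1.05, 0.50 and 0.90 in WT cultures. Its groups were separate and it rose by 1.41 ± 0.27 (SE, limma adjusted p = 0.0401, and 0.110 with slide as a block). Rasgrp3 was called in 7 of 16 alternatives.

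Genes that process, anchor or bind the kinases were not called with the settings used throughout. Of 17 genes for maturation, dephosphorylation and anchoring 0 passed in limma (1 at an unadjusted p of 0.05), with a median of 0.24. Akap5, a scaffold that holds protein kinase C at the membrane, had a difference of 1.78 ± 0.44 (SE, limma adjusted p = 0.0771) with separate groups, and Mapkap1, a subunit of the mTORC2 complex that primes the kinases, had 0.45 (limma adjusted p = 0.271). Of 9 partners of the atypical isoforms 0 passed (1 unadjusted), with Pard6g at -1.25 (limma adjusted p = 0.194) and Sqstm1 at 0.73 (limma adjusted p = 0.365). Akap5 and Pard6g were each called in 2 of 16 alternatives, and Mapkap1 and Sqstm1 in 0.

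Of 14 substrate genes 0 passed in limma (3 at an unadjusted p of 0.05), although 1 had a large difference. Gap43, a growth cone protein and classic substrate, had -4.96, -3.05 and -4.08 in Mmp19_KO cultures, against -1.16, 1.74 and -1.53 in WT cultures. Its groups were separate but WT replicate 2 was far above the other WT arrays, and the difference of -3.71 ± 0.91 (SE) gave a limma adjusted p of 0.0738, or 0.0495 in the slide block fit. Gap43 was well above background on only 1 Mmp19_KO array, and its difference was -1.69 with normexp and -2.68 without WT replicate 2, where it was called (limma adjusted p = 0.0421). Fscn1, the actin bundler fascin, had 1.35 ± 0.35 (SE, limma adjusted p = 0.0811) with separate groups.

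Of 18 genes known to respond to phorbol ester, 2 rose and 0 fell (11.1%, beside 4.74% of all genes tested). Their median was 0.28, beside 0.08 for all genes tested. Fos, a subunit of the AP-1 factor, had 4.16, 5.04 and 4.44 in Mmp19_KO cultures, against 2.84, 1.06 and 2.45 in WT cultures. It rose by 2.43 ± 0.49 (SE, limma adjusted p = 0.0434, and 0.116 with slide as a block). Plau, the urokinase plasminogen activator, had -0.84, -0.15 and -0.39 in Mmp19_KO cultures, against -2.25, -3.17 and -3.05 in WT cultures. It rose by 2.36 ± 0.32 (SE, limma adjusted p = 0.016, and 0.0691 with slide as a block), or by 1.30 with normexp, and was well above background on 2 of 3 WT arrays. Both genes had separate groups, and WT replicate 2 was the lowest array for each. Fos was called in 9 of 16 alternatives, and Plau in 10 of the 15 that gave a value. Of 21 other AGC kinases, the wider family to which protein kinase C belongs, 1 fell (4.76%, beside 4.74% of all genes tested). Sgk3 counted as not called by its brighter tested probe (0.46, limma adjusted p = 0.34), although its other tested probe was called. The gene that fell was Prkg2, a cGMP-dependent kinase, with -1.86, -1.39 and -1.51 in Mmp19_KO cultures, against 0.49, -0.16 and 0.53 in WT cultures. It fell by 1.88 ± 0.27 (SE, limma adjusted p = 0.0179, and 0.0669 with slide as a block), and differed by -1.20 with normexp. Prkg2 was called in 10 of 16 alternatives.

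**Figure D4:**
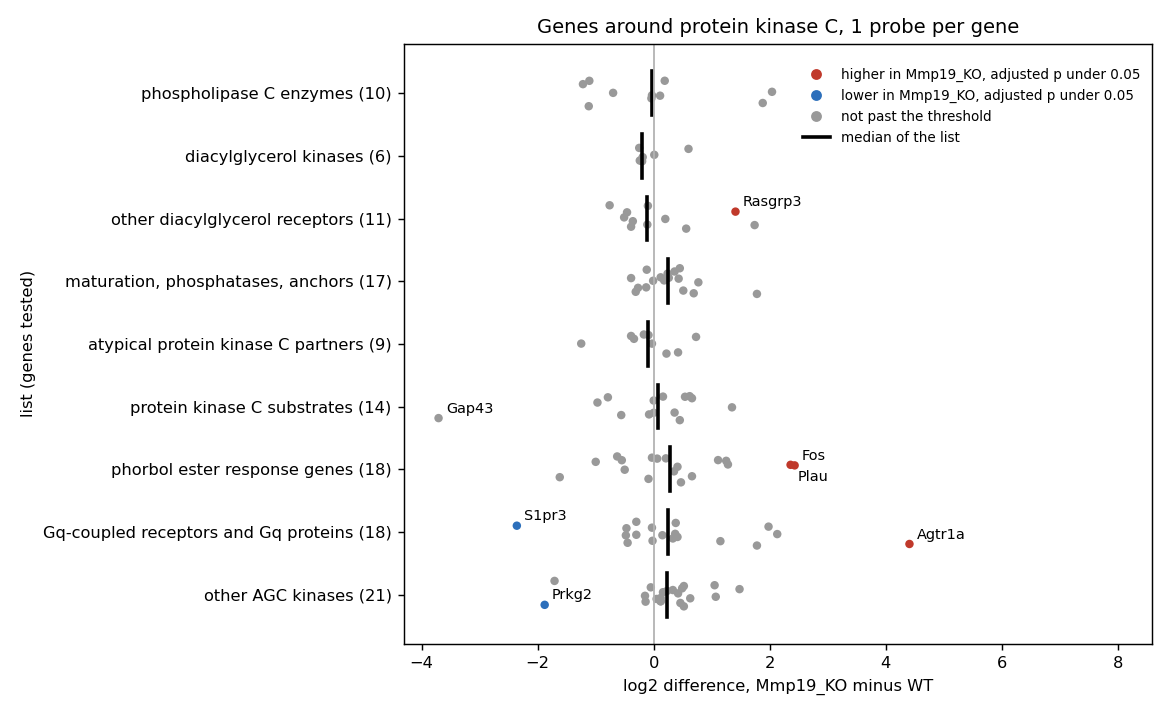
Log2 difference, Mmp19_KO minus WT (horizontal axis), of 124 of the 140 tested genes around protein kinase C, in 9 of the 11 lists, 1 probe per gene and 1 point per gene, by list (vertical axis, with the number of tested genes), with points spread up and down at random, red for genes that passed a limma adjusted p of 0.05 upwards and blue for those that passed downwards. List medians (black bars) lie between -0.20 and 0.28, and Agtr1a is drawn at its measured difference although its WT signal was not well above background.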

How the data were processed

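Total RNA of 6 fibroblast cultures, 0.5 µg each, was labelled with Cy3 and hybridised to one-colour arrays, per the labels' protocols. The deposited scanner tables hold processed intensity, with background subtracted by Agilent Feature Extraction 10.7.3.1 per the file headers; the submitters' processing notes name version 9.1. The authors also deposited log2 values for 35844 probes, whose column medians ran from 5.51 to 5.76; they tracked their own arrays (r of 0.9958 or more), the sources used here do not give their centring, and they served as an alternative.

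Control and outlier spots were left out, repeated spots averaged (55681 probes), and each array's 75th percentile of log2 intensity subtracted. Probes were named by RefSeq accession through the GRCm38.p6 gene table (26413 probes, 47.4%). A probe was tested where every array of at least 1 group had it well above background (24203 probes), with limma 3.58.1 in R 4.3.3, two-sided, Benjamini-Hochberg over all of them; a pathway gene used its brightest tested probe. The procedure was tested on simulated data with independent values and no outlying array or slide effect, so that test does not cover these. A "fold of at least" sets the bright group's mean against the dim group's, floored per array at the lowest signal called well above background. The isoforms, gene lists and tests were chosen with earlier results of these data known. Named from each list were up to 4 genes past the threshold, by size, or, in a list with no such gene, the 2 with the smallest p. A few further genes were named where they bear on how a list reads. Some genes and lists that were counted in the totals are not reported here by name. Array numbers limit the precision.

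Each slide held the Mmp19_KO and WT arrays that share a replicate number, which makes a replicate block and a slide block 1 fit. Deviations from group means correlated at 0.096, -0.02 and 0.21 within slides 1, 2 and 3, so no pairs were assumed.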

Additional observations from a re-analysis of the deposited data

How the results depend on the processing

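Of 16 alternatives, the Prkcb probes A_65_P20249 and A_55_P1976278 gave values in 15 and were called lower in 15 and 14, with differences from -5.02 to -1.41 and from -4.45 to -2.03; the exception at the second was the fit without WT replicate 3 (-4.09). With the filter that asks for all 6 arrays, 0 of 6 protein kinase C probes were called, since neither Prkcb probe is then tested; leaving out 1 array gave 1 to 2 calls, beside 2. Called probes numbered 1113, against 5065 with array weights (gene-by-gene method, since the default estimate did not converge), 113 with no filter on dim probes (111 shared), 633 with normexp, 651 with that filter, 385 with the replicate block (347 shared), and 108 to 1905 when 1 array was left out (108 without Mmp19_KO replicate 3, 1905 without WT replicate 2). The share of calls that were higher was 61.9%, and 51.7% with the 75th percentile over detected probes, 75.4% without WT replicate 3 and 41.4% without WT replicate 2. Pathway genes called were 6, against 32 with array weights, 2 with no filter, 3 with the replicate block and 2 to 21 with 1 array left out. Mmp19 kept -4.62 without a filter (limma adjusted p = 0.0551) and had -1.40 with normexp (0.0759), and -5.31 to -4.24 with 1 array left out; it was not called without Mmp19_KO replicate 2 or 3 or WT replicate 3. The median change of all probes shifted by -0.12 with the percentile over detected probes and by -0.11 with the authors' values. The cause of these changes was not tested. Limits: 3 arrays a group, 1 probe for most genes, 5 of 13 isoform probes too dim to test, no protein or activity measured, and sex-linked signals that run along with genotype.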
